A study of Mus musculus with 18 samples.

Results

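The intercalated disc is the end-to-end contact between heart muscle cells. Of its genes, 8 were followed here: Gja1 and Gja5, which encode gap junction connexins, Cdh2, Jup, Dsp, Vcl, Ctnna1 and Ctnnb1. They were taken by symbol from a list of genes of the disc's desmosomes, adherens junctions and gap junctions. The rule uses no measured value, although the list was drawn up with earlier results of these data known. All 8 were on the array, among 8251 genes with a single symbol. They were carried by 12 of 12422 probe sets without the controls. After removal of dim probe sets, 9 of those 12 were tested, and each of the 8 genes kept at least 1.

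RNA of mouse hearts had been measured on Affymetrix U74Av2 oligonucleotide arrays, 1 array a sample. The mice were either TNF-alpha transgenic (TG), with expression of the transgene described as cardiac-specific, or FVB. The groups were TG females of 3 weeks (3 arrays), FVB females of 3 weeks (2 distinct arrays), TG males of 3 weeks (3 arrays), FVB males of 3 weeks (3 arrays), TG males of 13 weeks (3 arrays) and TG females of 40 weeks (3 arrays). The labels name neither the promoter that drives the transgene, nor the part of the heart taken, nor whether each array stands for its own animal. The p-values therefore measure the spread among arrays, part of which may be technical. No FVB array was older than 3 weeks, and 13 weeks is represented by males and 40 weeks by females, so later values are set only against TG hearts of 3 weeks of the same sex. Growth and the transgene cannot be told apart in them.

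In the disc, desmosomes tie the intermediate filaments of neighbouring cells together, adherens junctions tie their actin filaments, and gap junctions let ions and small molecules pass, which carries the electrical impulse. Dsp encodes desmoplakin, which links the desmosome to desmin filaments, and Jup encodes plakoglobin, an armadillo protein shared by desmosomes and adherens junctions. Cdh2 encodes N-cadherin, the adhesion receptor of the adherens junction. Its cytoplasmic partners are beta-catenin (Ctnnb1), which is also the coactivator of canonical Wnt signalling, alpha-E-catenin (Ctnna1) and vinculin (Vcl), both of which bind actin. Gja1 encodes connexin 43, the main connexin of working ventricular muscle. Gja5 encodes connexin 40, which in the heart belongs to the atria, the conduction system and arterial endothelium.

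The arrays were checked before the members were compared. Tnf gave a signal of 5475.5 to 11342.8 on the TG arrays of 3 weeks, against 12.5 to 124.9 on the FVB arrays, and stayed at 7506.9 or above at the later ages. FVB female replicates 1 and 2 were identical in every probe set and were counted as 1 array, called FVB female replicate 1. That array had 7.33% of its probe sets at the floor, against 23.7% to 28.3% on the others. The arrays labelled FVB male replicates 1 and 2 gave signals of Xist of 1380.6 and 2705.7, against 5.9 on replicate 3. Xist is the RNA that coats the inactive X chromosome of females, so the label of sex of these 2 arrays is in doubt. Eif2s3y, a gene of the Y chromosome, gave 298.7 and 67.4 on them, against 544.9 on replicate 3. It gave 347.8 to 484.4 on the TG males and 2.9 to 30.8 on the TG females. FVB male replicate 1 thus carried signals of both genes. FVB female replicate 1 gave 115.3 for Eif2s3y, against 40.9 on replicate 3. The cause was not tested. Values without FVB female replicate 1 and FVB male replicates 1 and 2, the 3 doubted arrays, are given at 3 weeks for some of the 8 genes only. Without them the log2 differences of TG minus FVB hearts were -0.85 for Gja1, -0.24 for Gja5, -0.26 for Ctnna1 and -0.22 for Vcl. Within females the sign turned for Vcl (0.09 to -0.24), Ctnna1 (0.09 to -0.12), Ctnnb1 (0.29 to -0.08) and Cdh2 (-0.07 to 0.07). Within males it turned for Ctnnb1 (0.08 to -0.04). The ratio of the 3' to the 5' probe sets of Actb, a sign of RNA integrity, was 1.12 to 1.44 on the TG arrays and 1.29 to 1.97 on the FVB arrays of 3 weeks. Its part in the results below was not tested.

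In TG hearts of 3 weeks, 4 of the 8 genes fell: Dsp, Jup, Gja1 and Cdh2. Ctnnb1, Ctnna1, Vcl and Gja5 were not called, and none rose. Called means a Benjamini-Hochberg adjusted p under 0.05 in limma, over all 7453 probe sets tested. In the same comparison 46.6% of all probe sets tested were called, 24.7% higher and 21.9% lower, so that a count of 4 has to be read against a change on much of the array. The median log2 difference of the 8 genes was -0.27, against -0.0065 over all probe sets tested. In bulk tissue, fewer cells of a type and less RNA per cell cannot be told apart.

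The promoters of Dsp, Jup and Gja1, 3 of the 4 genes that fell, are shown because these genes moved in one direction. They are RefSeq sequences on GRCm38.p6, from 250 bases before to 50 bases after the annotated start, read 5′ to 3′ on the gene's strand: Gja1 at chr10:56377050-56377349 (plus strand), Jup at chr11:100397741-100398040 (minus strand) and Dsp at chr13:38151044-38151343 (plus strand). Capitals mark matches to AP-1 (TGANTCA) and to SP1 (GGGCGG or its reverse complement CCGCCC).
Dsp: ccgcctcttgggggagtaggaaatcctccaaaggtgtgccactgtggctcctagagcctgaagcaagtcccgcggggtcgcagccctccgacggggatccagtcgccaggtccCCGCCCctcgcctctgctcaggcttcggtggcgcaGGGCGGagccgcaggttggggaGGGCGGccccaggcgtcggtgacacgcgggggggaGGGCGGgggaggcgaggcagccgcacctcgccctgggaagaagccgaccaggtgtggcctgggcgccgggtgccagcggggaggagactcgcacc
Jup: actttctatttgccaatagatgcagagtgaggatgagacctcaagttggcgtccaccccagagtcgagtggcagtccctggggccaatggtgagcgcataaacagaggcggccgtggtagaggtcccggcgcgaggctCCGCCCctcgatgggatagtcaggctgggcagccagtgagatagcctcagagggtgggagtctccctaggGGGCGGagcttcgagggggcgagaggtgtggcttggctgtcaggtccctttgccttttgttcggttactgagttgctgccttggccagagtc
Gja1: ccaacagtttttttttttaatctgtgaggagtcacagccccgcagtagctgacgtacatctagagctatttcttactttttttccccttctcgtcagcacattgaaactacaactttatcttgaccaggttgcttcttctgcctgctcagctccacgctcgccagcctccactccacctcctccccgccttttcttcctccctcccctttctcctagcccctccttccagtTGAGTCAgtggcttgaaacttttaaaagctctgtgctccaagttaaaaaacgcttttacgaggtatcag
The Dsp window had a GC content of 73.0% and held 4 SP1 matches, the Jup window 60.7% and 2 SP1 matches, and the Gja1 window 47.7% with 1 AP-1 match and no SP1 match. Over all 32851 RefSeq mouse promoters of this length, searched on both strands, 7.81% held the AP-1 letters and 35.7% the SP1 letters. Windows of 6 of the 8 genes were searched. Those of Ctnna1 and of Cdh2, which also fell, were left out of the search. Among the genes that were not called, the windows of Vcl (4 matches), Ctnnb1 (3 in each of 2 windows) and Gja5 (1 match) also held SP1 letters, so these did not separate the genes that fell from the others. No window of the 6 genes held the letters searched for NF-kB, present in 1.63% of all promoters, or for TCF/LEF (CTTTGAT), present in 3.73%. E-box letters (CANNTG), present in 72.3% of all promoters, were also searched. The windows of Dsp, Gja1 and Gja5 held 1 match each, and those of Jup, Vcl and Ctnnb1 held 0. A match is a description of the letters and not a bound site, and its absence says nothing about the factor.

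**Figure D1:**
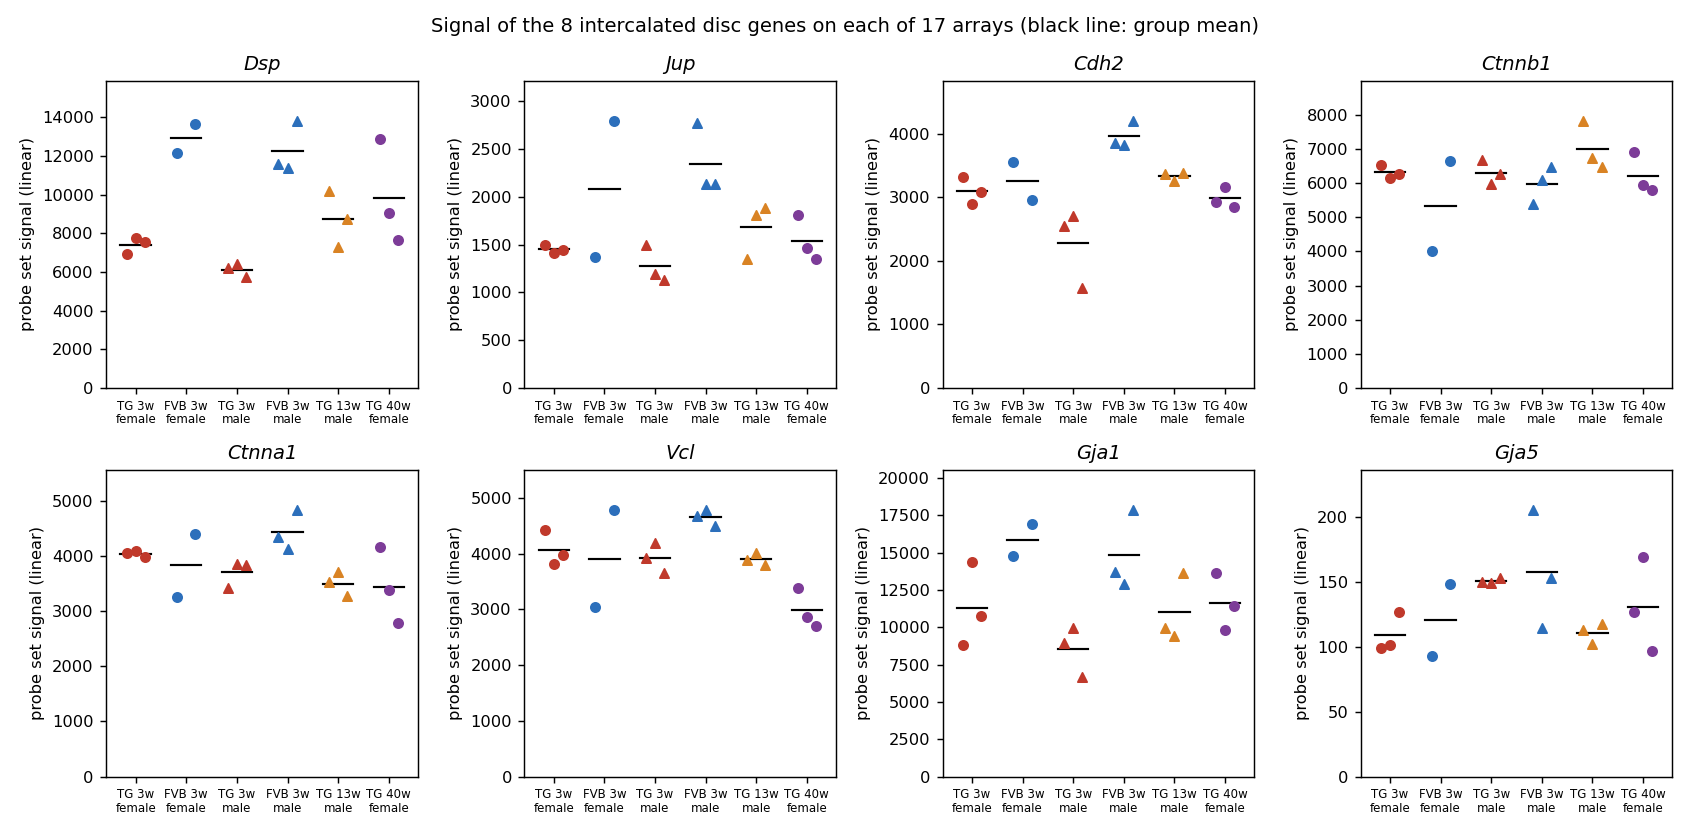
Signal of the 8 genes on each array (y axis, deposited signal, linear from 0) by group (x axis), with TG left of FVB in each sex, 1 point an array and a black line at the group mean. Dsp lies lower on all 6 TG arrays of 3 weeks (at most 7757.6) than on all 5 FVB arrays (at least 11385.5), while the points of Ctnnb1, Ctnna1, Vcl and Gja5 overlap.

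Of Dsp and Jup, the desmosome genes among the 8, Dsp showed the clearer separation. Its signal was 6941.1, 7757.6 and 7546.9 in TG females of 3 weeks, against 12174.9 and 13626.5 in FVB females. In males it was 6178.9, 6391.9 and 5719 in TG hearts, against 11590.6, 11385.5 and 13802.7 in FVB hearts. Every TG array lay below every FVB array in both sexes. The mean was 6756 ± 800 in TG hearts (SD, n = 6) and 12516 ± 1134 in FVB hearts (SD, n = 5). This is a log2 difference of -0.90 (SE 0.15, 95% interval -1.21 to -0.59), or a TG signal 0.536 times that of FVB (0.432 to 0.663), with a limma adjusted p of 0.000126. Of the 8 genes, 1 had groups that did not overlap at 3 weeks, namely Dsp, and 9.14% of all probe sets tested were separated in that direction. The second Dsp probe set was below the floor on all 6 TG arrays and on 3 of the 5 FVB arrays, and was not tested.

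Jup, plakoglobin, was lower in TG hearts with 1 FVB array among the TG values. In females its signal was 1493.8, 1407 and 1446.1 in TG hearts, against 1367.6 and 2791.6 in FVB hearts. In males it was 1492.9, 1195.9 and 1125.4 in TG hearts, against 2772, 2133.9 and 2129.2 in FVB hearts. The low FVB value, 1367.6, is that of FVB female replicate 1, the array with few probe sets at the floor, and the other 4 FVB arrays lay above all 6 TG arrays. The mean was 1360 ± 159 in TG hearts and 2239 ± 586 in FVB hearts, a log2 difference of -0.66 (SE 0.18, 95% interval -1.04 to -0.28, limma adjusted p = 0.00722). Without FVB female replicate 1 the difference was -0.91 (limma adjusted p = 0.000331), and without all 3 doubted FVB arrays it was -0.85 (limma adjusted p = 0.00297). Without FVB female replicate 3, the brightest of the FVB arrays for Jup, it was -0.40 (limma adjusted p = 0.0474).

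At the adherens junction, the cadherin fell while its catenin partners and vinculin were not called. Cdh2 gave 3312.7, 2889.2 and 3077.9 in TG females, against 3552.9 and 2951.4 in FVB females. In males Cdh2 gave 2548.7, 2706.6 and 1572.8 in TG hearts, against 3846.5, 3817.8 and 4196 in FVB hearts. The sexes thus differed in overlap: the female groups overlapped and the male groups did not. The mean was 2685 ± 608 in TG hearts and 3673 ± 464 in FVB hearts, a log2 difference of -0.45 (SE 0.14, 95% interval -0.75 to -0.15, limma adjusted p = 0.0163). The Cdh2 call was lost without FVB female replicate 1 (-0.38, adjusted p = 0.0635), without the 3 doubted FVB arrays (-0.43, adjusted p = 0.103) and with array weights (-0.43, adjusted p = 0.075), all in limma.

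Ctnnb1, beta-catenin, ran from 5978.6 to 6689 with a median of 6265.55 on the 6 TG arrays, against 4016.6, 6659.3, 5392.7, 6089.3 and 6475 on the FVB arrays. The TG arrays lay close together, and the groups overlapped, with the highest value on a TG array and the lowest on an FVB array. The log2 difference was 0.18 (SE 0.14, 95% interval -0.11 to 0.48, limma adjusted p = 0.288). Under quantile normalization it became 0.37 with a limma adjusted p of 0.0298, a call as higher that the deposited scale did not give, and without FVB female replicate 3 it was 0.37 (adjusted p = 0.0232). Without FVB female replicate 1 it was 0.0012, and without all 3 doubted FVB arrays -0.06, neither called.

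Ctnna1, alpha-E-catenin, ran from 3419.9 to 4080.4 with a median of 3916.4 on the TG arrays, against 3263, 4398.1, 4349.8, 4123.4 and 4834.8 on the FVB arrays. Its log2 difference was -0.08 (SE 0.13, 95% interval -0.36 to 0.19, limma adjusted p = 0.626). Vcl, vinculin, ran from 3641.7 to 4426.1 with a median of 3945.05 on the TG arrays, against 3036.1, 4784.5, 4674, 4782.8 and 4493.8 on the FVB arrays. Its log2 difference was -0.08 (SE 0.13, 95% interval -0.36 to 0.20, limma adjusted p = 0.647). For both genes the groups overlapped through FVB female replicate 1, which gave the lowest value of both genes among the arrays of 3 weeks. Without it the differences were -0.19 for Ctnna1 (limma adjusted p = 0.282) and -0.24 for Vcl (adjusted p = 0.122), and without FVB female replicate 3 they were 0.02 and 0.09, so their sign depends on single FVB females. The intervals leave room for a fall of up to 0.36 on the log2 scale in either gene. A second, dimmer probe set of each gene was not tested: that of Ctnna1 was below the floor on all 6 TG arrays and 4 of the 5 FVB arrays, and that of Vcl ran from 58.7 to 281.6 in TG and from 67.7 to 273.8 in FVB hearts.

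At the gap junction, the brighter probe set of Gja1 fell and its second probe set did not. The brighter one gave 8820, 14360.3 and 10790.4 in TG females, against 14774.6 and 16914.2 in FVB females. In males it gave 8952.9, 9939.4 and 6694.3 in TG hearts, against 13707.3, 12879.8 and 17875.7 in FVB hearts. Within each sex no TG array reached an FVB array, although the brightest TG female lay above the 2 dimmer FVB males. The mean was 9926 ± 2570 in TG hearts and 15230 ± 2115 in FVB hearts, a log2 difference of -0.66 (SE 0.17, 95% interval -1.02 to -0.29, limma adjusted p = 0.00563). The second probe set ran from 972.1 to 1876.9 with a median of 1287.15 on the TG arrays, against 774.8, 1488, 1593.2, 1362.4 and 1622.5 on the FVB arrays. Its log2 difference was 0.02 (SE 0.31, 95% interval -0.63 to 0.67, limma adjusted p = 0.969). This interval ends just short of the value of the brighter probe set, and the difference between the 2 probe sets was not tested. The mean of both probe sets on the log2 scale gave -0.32 (limma adjusted p = 0.195), so the Gja1 call rests on the brighter probe set. Quantile normalization gave -0.36 for the brighter one (limma adjusted p = 0.0214).

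Gja5, connexin 40, was dim: its mean signal stood at the 42.6th percentile of all probe sets. On the TG arrays of 3 weeks it ran from 99.3 to 152.7 with a median of 137.8, against 93.2, 148.3, 205.6, 114.2 and 152.8 on the FVB arrays. The groups overlapped over most of their range. The log2 difference was -0.07 (SE 0.18, 95% interval -0.46 to 0.32, limma adjusted p = 0.778). All 6 atrial and conduction markers on the array, summed, gave 4984.7 to 11293.6 in TG and 3355.7 to 19787.8 in FVB hearts, and the 5 arterial endothelial markers on the array gave 2396.6 to 3099.1 in TG and 2346.8 to 3258.7 in FVB hearts. The TG range of both sums lay within the FVB range. For the atrial sum the upper end of that range was 1 array labelled FVB male, at 19787.8. The medians of the atrial sum were 10078.1 in TG and 5451.3 in FVB hearts. Of 4 tested atrial and conduction markers, Nppa was higher at 1.80 and Stmn2 lower at -0.87. Myl7 (-0.94) and Myl4 (-0.68) were not called, and 0 of 4 tested arterial markers were called.

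Within females of 3 weeks, only Dsp passed the threshold among the 8 genes, against 34.7% of all probe sets tested (19.4% higher, 15.3% lower). Its log2 difference was -0.80 (SE 0.22, limma adjusted p = 0.0113). Gja1 gave -0.51 with groups that did not overlap but an adjusted p of 0.132, Jup gave -0.43 (adjusted p = 0.221) and Cdh2 -0.07 (adjusted p = 0.824), all in limma. With 2 FVB females, 1 of them the array with few probe sets at the floor, these values depend on single arrays: without that array Jup was called (-0.95, limma adjusted p = 0.0197), and without the other FVB female, replicate 3, Jup gave 0.08 (adjusted p = 0.82) and Ctnnb1 was called higher at 0.65 (adjusted p = 0.0184). The female groups did not overlap for 2 of the 8 genes, Dsp and Gja1, against 26% of all probe sets separated in that direction. The Dsp call was lost with a common median (-0.63, adjusted p = 0.0524), with array weights (-0.79, adjusted p = 0.124) and in a fit of only the groups compared (-0.80, adjusted p = 0.06), all in limma.

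Within males of 3 weeks, Dsp, Jup, Cdh2 and Gja1 were all called lower, 4 of the 8 genes, against 29.7% of all probe sets tested (16.9% higher, 12.8% lower). The log2 differences were -1.004 for Dsp (SE 0.19, limma adjusted p = 0.000932), -0.88 for Jup (SE 0.24, adjusted p = 0.0103), -0.84 for Cdh2 (SE 0.19, adjusted p = 0.00313) and -0.80 for Gja1 (SE 0.23, adjusted p = 0.0142). The male groups did not overlap for 6 of the 8 genes, these 4 and the uncalled Ctnna1 and Vcl, against 21% of all probe sets separated in that direction. Ctnna1 at -0.26, Vcl at -0.25, Ctnnb1 at 0.08 and Gja5 at -0.02 were not called. Without the 3 doubted FVB arrays, which leaves 1 FVB male whose spread is taken to be that of the other groups, Dsp gave -1.18 (limma adjusted p = 0.008), Gja1 -1.09 (adjusted p = 0.0269) and Cdh2 -0.92 (adjusted p = 0.0261), while Jup at -0.75 was no longer called (adjusted p = 0.0511). The Gja1 call was lost without FVB male replicate 3 (-0.66, adjusted p = 0.076) or TG male replicate 3 (-0.64, adjusted p = 0.0768).

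The difference between the sexes was tested directly, as the male minus the female TG effect. No probe set on the array was called in limma (0%), with 16.5% at an unadjusted p under 0.05. Cdh2 had the strongest signal among the 8 genes, at -0.77 (SE 0.28, unadjusted p = 0.0157, limma adjusted p = 0.221), and the adjusted p of the other 7 ran from 0.489 to 0.909. Without the 3 doubted FVB arrays Cdh2 gave -0.99 (limma adjusted p = 0.548), and none of the 8 genes was called. Without FVB female replicate 3, by contrast, 1492 probe sets were called, Jup among them at -0.97 (limma adjusted p = 0.0447). Calls in males that were missed in females are thus not shown to differ between the sexes.

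Plakoglobin and beta-catenin are close relatives that can both bind N-cadherin, connexin 43 and connexin 40 are relatives in the gap junction, and alpha-catenin and vinculin are relatives that bind actin. For each of these 3 pairs the log2 ratio of the signals was taken within each array, where a common scale factor cancels. Only its difference between groups is read, since signals of different probe sets have no common scale. The pairs were picked with the values of the single genes known, so the ratios are read as a description and no p-value is used. Jup over Ctnnb1 averaged -2.22 ± 0.15 on the 6 TG arrays (lowest -2.48, highest -2.11), against -1.38 ± 0.27 on the 5 FVB arrays (lowest -1.60, highest -0.96). The groups did not overlap, at a difference of -0.85. The share of other gene pairs whose ratio separates the groups was not counted. FVB female replicate 1, which lay among the TG arrays for Jup alone, lay among the other FVB arrays for the ratio, at -1.55. Its Ctnnb1 signal, 4016.6, was the lowest of all arrays. The 2 FVB arrays that are not in doubt gave -1.25 and -1.60. The ratio of Gja1 over Gja5 differed by -0.54 and that of Ctnna1 over Vcl by 0.0013, both with groups that overlapped. Later, Jup over Ctnnb1 was -2.54, -1.89 and -1.79 in TG males of 13 weeks, and -1.94, -2.02 and -2.11 in TG females of 40 weeks.

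**Figure D2:**
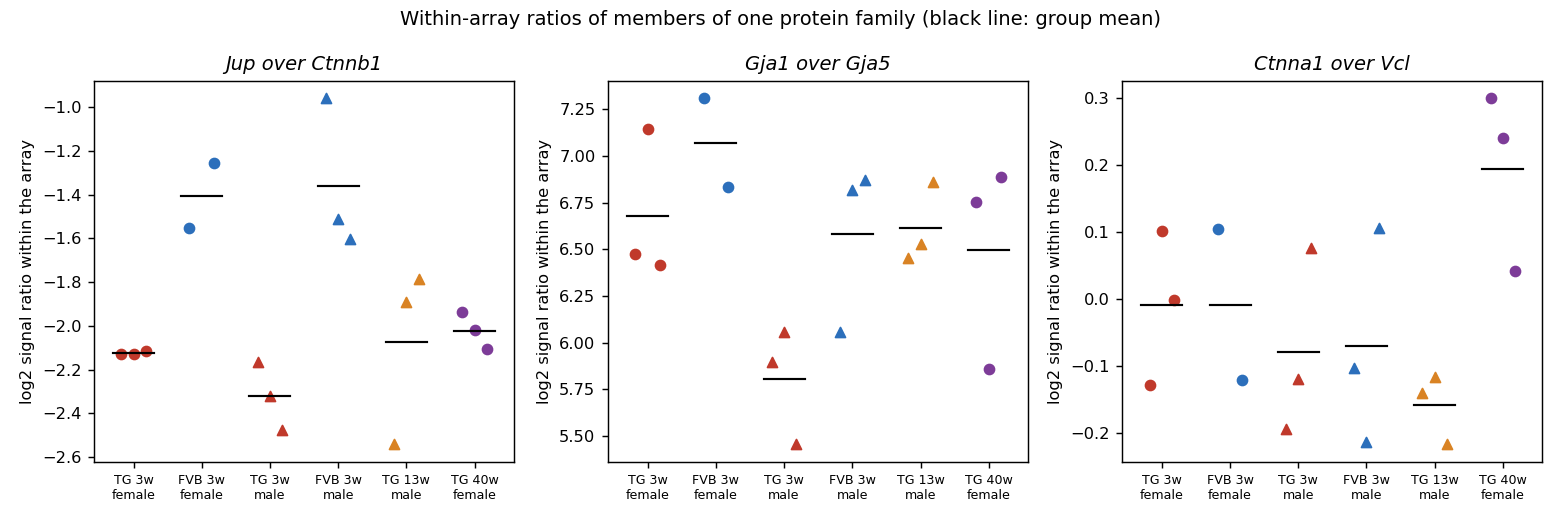
Log2 ratio of the signals of 2 related genes within each array (y axis) by group (x axis), 1 point an array and a black line at the group mean. For Jup over Ctnnb1 all 6 TG arrays of 3 weeks lie at -2.11 or lower and all 5 FVB arrays at -1.60 or higher, while the points of the other pairs overlap. The pairs were picked with the values known, and the share of other gene pairs that separate was not counted.

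In TG males, none of the 8 genes was called between 13 and 3 weeks, a comparison that called 0.523% of all probe sets tested. Cdh2 gave 3357.6, 3249.3 and 3385.8 at 13 weeks, against 2548.7, 2706.6 and 1572.8 at 3 weeks. Dsp gave 10195.8, 7308.9 and 8743.9 at 13 weeks, against 6178.9, 6391.9 and 5719 at 3 weeks. In both genes every array of 13 weeks lay above every array of 3 weeks. The log2 differences were 0.59 for Cdh2 (95% interval 0.19 to 0.99, limma adjusted p = 0.27) and 0.51 for Dsp (0.10 to 0.92, adjusted p = 0.396), which missed the adjusted threshold; at an unadjusted p under 0.05 they are 2 of the 8 genes, against 8.61% of all probe sets. Gja5 ran the other way, with 113.2, 102.3 and 117.3 at 13 weeks against 150.1, 149.1 and 152.7 at 3 weeks (log2 difference -0.44, limma adjusted p = 0.706). The ages were thus separated for 3 of the 8 genes, against 15.8% of all probe sets. Jup at 0.40, Gja1 at 0.37, Ctnnb1 at 0.15, Vcl at -0.01 and Ctnna1 at -0.09 overlapped between the ages.

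In TG females, none of the 8 genes was called between 40 and 3 weeks, against 0.671% of all probe sets tested. Vcl gave 3380, 2868.3 and 2705.9 at 40 weeks, against 4426.1, 3805.7 and 3977 at 3 weeks. The ages did not overlap, in 1 of the 8 genes and 17% of all probe sets, and the log2 difference was -0.45 (95% interval -0.82 to -0.08, limma adjusted p = 0.408). It is the 1 gene of the 8 at an unadjusted p under 0.05, against 9.1% of all probe sets. Dsp gave 12853.1, 9023.8 and 7656.6 at 40 weeks, against 6941.1, 7757.6 and 7546.9 at 3 weeks, a log2 difference of 0.38 (limma adjusted p = 0.629) in groups that overlapped. The other 6 genes ran from -0.25 (Ctnna1) to 0.23 (Gja5). The difference between the 2 age changes was called for none of the 8 genes and no probe set on the array in limma, with 2.87% of probe sets, Cdh2 among them, at an unadjusted p under 0.05. When the 6 group means of each gene were put in order, none of the 40 pairs of neighbours had an adjusted p under 0.05 in limma. The lowest was 0.169. Neighbours in such an order are picked as the closest means, so this says nothing about groups further apart, such as TG and FVB hearts for Dsp.

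**Figure D3:**
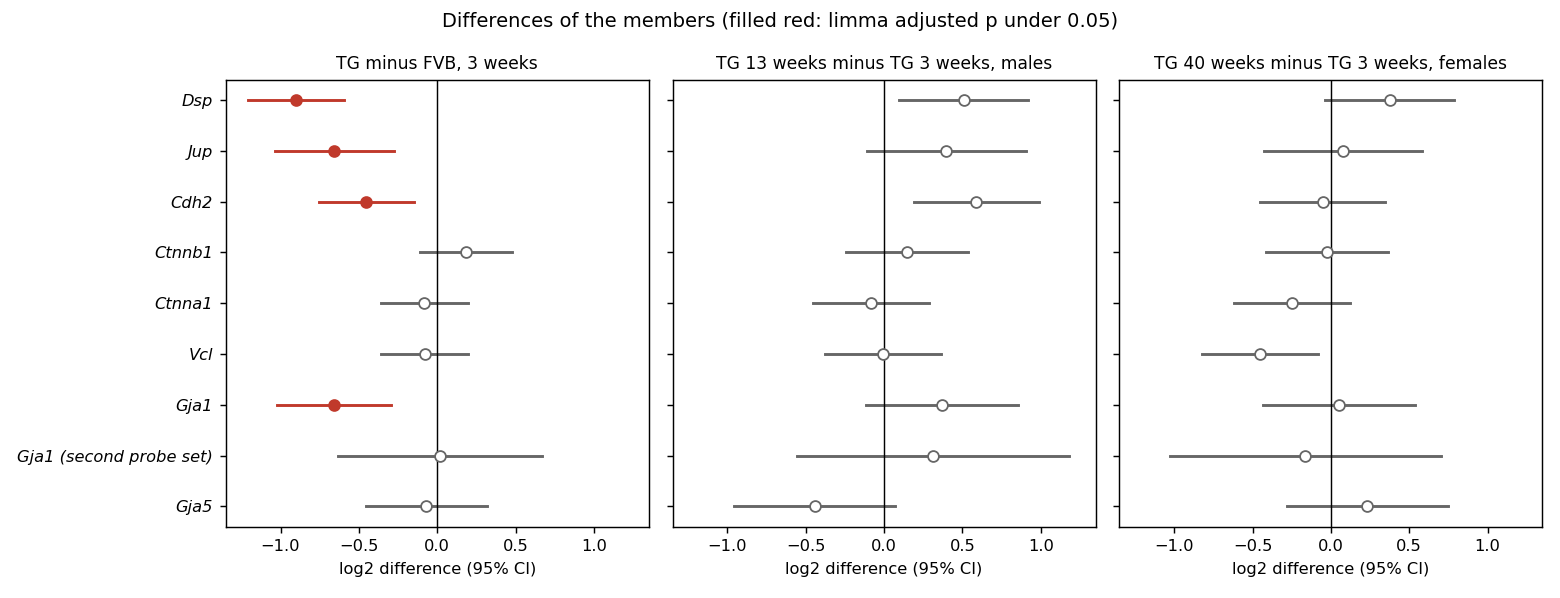
Log2 difference (x axis) of each of the 8 genes and of the second Gja1 probe set (y axis), for TG minus FVB hearts at 3 weeks (left), TG males of 13 minus 3 weeks (middle) and TG females of 40 minus 3 weeks (right). Bars are 95% intervals and filled red points passed the adjusted threshold in limma, which Dsp, Jup, Cdh2 and Gja1 did at 3 weeks and no gene did at the later ages.

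The rest of the junction was read from lists of genes of the same structures. Of 15 other desmosome genes, 7 were tested: 4 were lower in TG hearts of 3 weeks, 0 were higher and 3 were not called, with a median log2 difference of -0.65. The lower ones were Ppl (periplakin, a relative of desmoplakin) at -1.08, Perp (a desmosome membrane protein) at -0.99, Des (desmin, the filament that desmoplakin holds) at -0.67 and Pkp4 (an armadillo protein related to the plakophilins) at -0.65. The cardiac desmosomal cadherins and plakophilin gave -0.39 for Dsc2 (limma adjusted p = 0.161), -0.02 for Dsg2 (adjusted p = 0.952) and -0.06 for Pkp2 (adjusted p = 0.784). Desmoplakin and plakoglobin were thus called lower, while Dsc2, Dsg2 and Pkp2, their partners in the cardiac desmosome, were not called. The difference between the called and the uncalled genes was not tested. Pkp2 was read from the brighter of its 2 tested probe sets.

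Of 36 other adherens junction and costamere genes, 22 were tested, with 6 higher, 2 lower and a median of -0.10. The higher ones included the actin crosslinkers Actn1 at 1.62 (limma adjusted p = 1.17e-06) and Actn4 at 1.43, and the LIM protein Csrp1 at 1.41. The lower ones were Nrap at -0.83, a muscle protein of the cell ends, and Itga7 at -0.81, the laminin receptor subunit of muscle. Called genes of this list thus lay on both sides of the uncalled Ctnna1 and Vcl. Of 11 other cadherins, 4 were tested and 1 was called lower, Cdh13 at -1.06, which encodes T-cadherin, a lipid-anchored cadherin without the tail that binds catenins.

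Of 22 other connexins and gap junction partners, 4 were tested. Gja4, connexin 37 of the endothelium, was higher at 0.64 (limma adjusted p = 0.0134), a call that was lost without FVB female replicate 1. Gjc1 (connexin 45) at 0.16 and Tjp1 (ZO-1, which binds connexin 43) at -0.0076 were not called. Of 12 other disc channels and scaffolds, 7 were tested, with 3 lower and 0 higher: Ldb3, a Z-disc protein, at -1.37, Dag1 (dystroglycan) at -0.78, whose second probe set gave -0.12, and Cav3 (muscle caveolin) at -0.50. Of 30 genes of beta-catenin signalling, 19 were tested, with 3 higher and 4 lower around a median of 0.09. The higher ones were Dvl2 (dishevelled) at 0.97, Pygo2 at 0.75 and the Wnt target Ccnd1 at 0.75. The lower ones were Ctnnbip1, an inhibitor of beta-catenin, at -0.70, the transcription factor Tcf7l2 at -0.70, the receptor Fzd4 at -0.69 and the ubiquitin ligase subunit Btrc at -0.45. Without FVB female replicate 1 these counts became 4 higher and 1 lower, so that the list showed no stable direction beside the uncalled Ctnnb1. In the later TG hearts, Cav3 was the only gene of these junction lists called, at -1.10 in females of 40 weeks against 3 weeks (limma adjusted p = 0.00424).

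**Figure D4:**
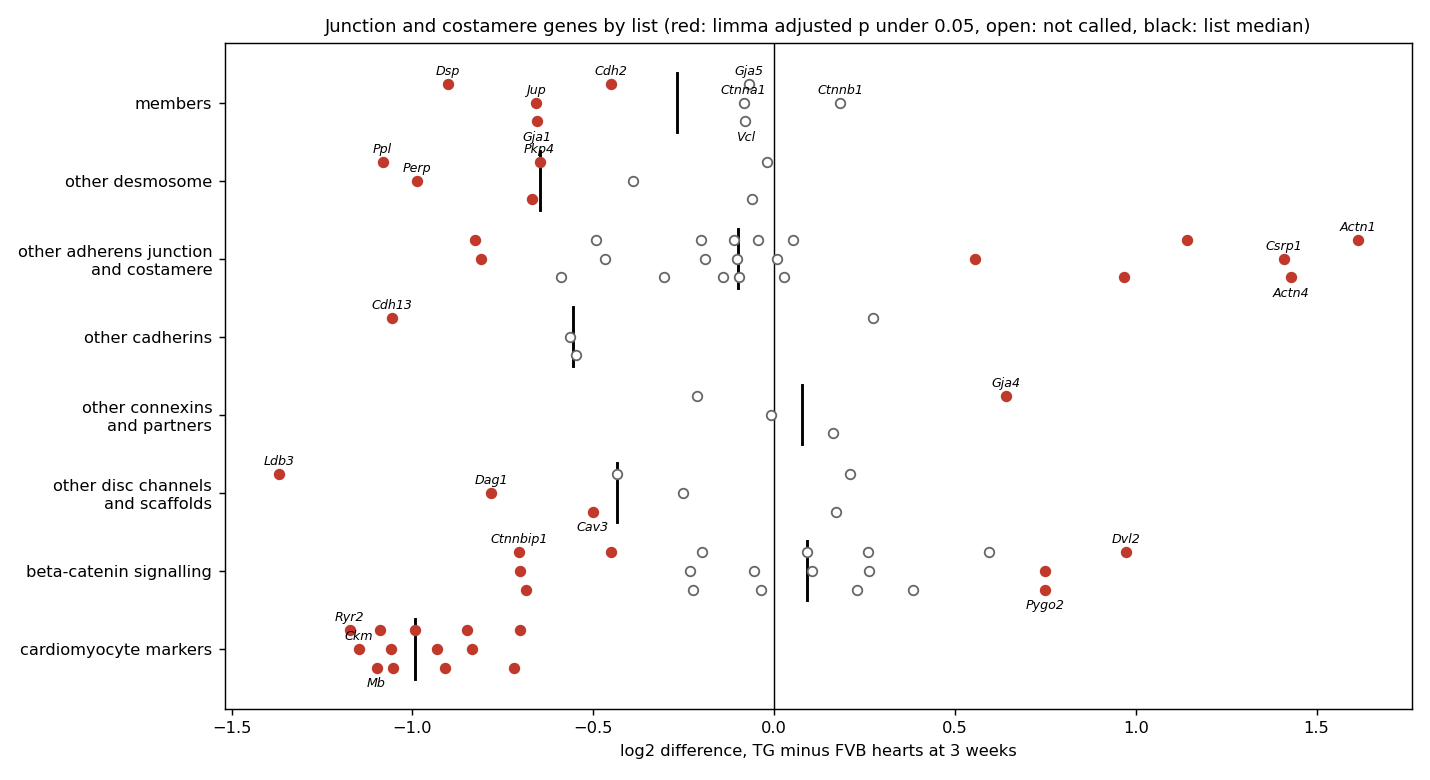
Log2 difference of TG minus FVB hearts at 3 weeks (x axis) for every tested gene of each list (y axis), with filled red points for genes called in limma, open points for those not called and a black line at the list median. The 8 genes and the lists of desmosome genes, cadherins, disc channels and scaffolds, and cardiomyocyte markers hold called genes on the lower side only. The adherens junction and costamere list and the beta-catenin signalling list hold called genes on both sides. The list of connexins and partners holds a called gene on the higher side only.

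Markers of the heart's cell types moved in the same comparison. Of 15 cardiomyocyte markers 13 were on the array, and all 13 were lower in TG hearts, with a median log2 difference of -0.99. Their summed signal was 133666.6 to 256216.9 in TG hearts (median 163767.6), against 253750.5 to 401630.5 in FVB hearts (median 347537.6), and none was at the floor. The median of the 13 markers was thus a larger fall than that of Dsp (-0.90), Jup (-0.66), Gja1 (-0.66) or Cdh2 (-0.45). A second probe set of Actc1 was also lower at -0.71, and that of Ckm was not called (-0.37, limma adjusted p = 0.431). All 10 tested macrophage and leukocyte markers were higher, with a median of 3.61, and their sum was 42325.1 to 58080.8 in TG hearts, against 4307.8 to 6554.6 in FVB hearts. A second probe set of Ptprc was also higher at 2.68. That of Csf1r was called lower (-1.02, limma adjusted p = 0.00449), against 2.30 for the brighter one. Of 11 endothelial markers 1 was higher and 3 were lower (0 higher and 3 lower without FVB female replicate 1), with a sum of 13489.3 to 15847.8 in TG and 9937.9 to 19162.9 in FVB hearts. Among the lower ones, Flt1 at -1.13 had a second probe set that was not called (-0.21, limma adjusted p = 0.519). Of 7 tested smooth muscle and pericyte markers 3 were higher, Acta2 at 1.19, Tagln at 1.14 and Mcam at 1.12. The 2 lower ones were Myh11 at -0.66 and Rgs5 at -1.04, whose second probe set gave -0.67 (limma adjusted p = 0.0566). The sum of all 8 markers was 8784.8 to 11101.4 in TG hearts, against 4740.8 to 7371.5 in FVB hearts, beside the higher Actn1 and Csrp1. Acta2 was the brightest of the tested ones, with a mean of 5453.45 in TG and 2502.38 in FVB hearts. Of 10 fibroblast markers 4 were higher, with Postn at 1.4999 and Dpt at 0.99, and 3 were lower, with Tcf21 at -0.75, and their sum was 32389.6 to 42527.7 in TG and 28266.9 to 46532.1 in FVB hearts. The other higher ones were Col1a2 at 0.64 and Col1a1 at 0.54. A further probe set of Col1a2 was called lower (-1.08, limma adjusted p = 0.00292), and that of Col1a1 was not called (0.08, adjusted p = 0.837). Further probe sets of Fbln1, a lower marker, were also lower, at -1.09 and -0.84. Epithelium also builds desmosomes: the 8 epithelial markers summed to 444.3 to 746.5 in TG and 493.8 to 2086.8 in FVB hearts, with Krt19, Epcam, Krt5 and Krt14 at the floor on all TG arrays of 3 weeks and on all FVB male arrays. The FVB males, at 493.8 to 626.5, lay within the TG range, and the higher FVB sums were those of the 2 FVB females. The part of these cell types in the values of the 8 genes and of the junction lists was not tested.

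The genes whose log2 signal ran most like each of the 8 over the 17 arrays were ranked by Pearson's r, as a description, since these arrays share the same groups and scaling. For Gja1 they were Myl3 (0.945), Micos13 (0.943) and Sdhb (0.939), a ventricular myosin light chain and 2 mitochondrial proteins. For Dsp they were Pde4dip (0.946), Adssl1 (0.936) and Atp2a2 (0.932), the last the calcium pump of the sarcoplasmic reticulum. For Jup they were Nop10 (0.894), Polrmt and Prkaca (0.867), and for Cdh2 Dbi (0.867), Pspn (0.865) and Bcl6 (0.863). Ctnna1 was most like Phb2 (0.939), Kpna2 (0.910) and Ppa2 (0.906), and Vcl most like Uba3, Gnai1 (0.890) and Trim13. For Ctnnb1 they were Snx5, Prrc1 (0.891) and Polr1d (0.885), whose r dropped to 0.747, 0.672 and 0.734 without FVB female replicate 1. Gja5 had no close match, with Il15ra (0.789) first. Among the 8 genes themselves, r was 0.829 for Gja1 with Dsp, 0.772 for Vcl with Ctnna1, 0.695 for Jup with Dsp and 0.657 for Cdh2 with Dsp, over the same 17 arrays.

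The processing alternatives left Dsp and Jup called lower at 3 weeks in every setting tried. Dsp ran from -1.03 to -0.66 and Jup from -0.91 to -0.40 on the log2 scale, with limma adjusted p-values of at most 0.00158 for Dsp and 0.0474 for Jup. Gja1 ran from -0.85 to -0.32 and Cdh2 from -0.52 to -0.33, both below 0 throughout but each with settings in which the call was lost, as given above.

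**Figure D5:**
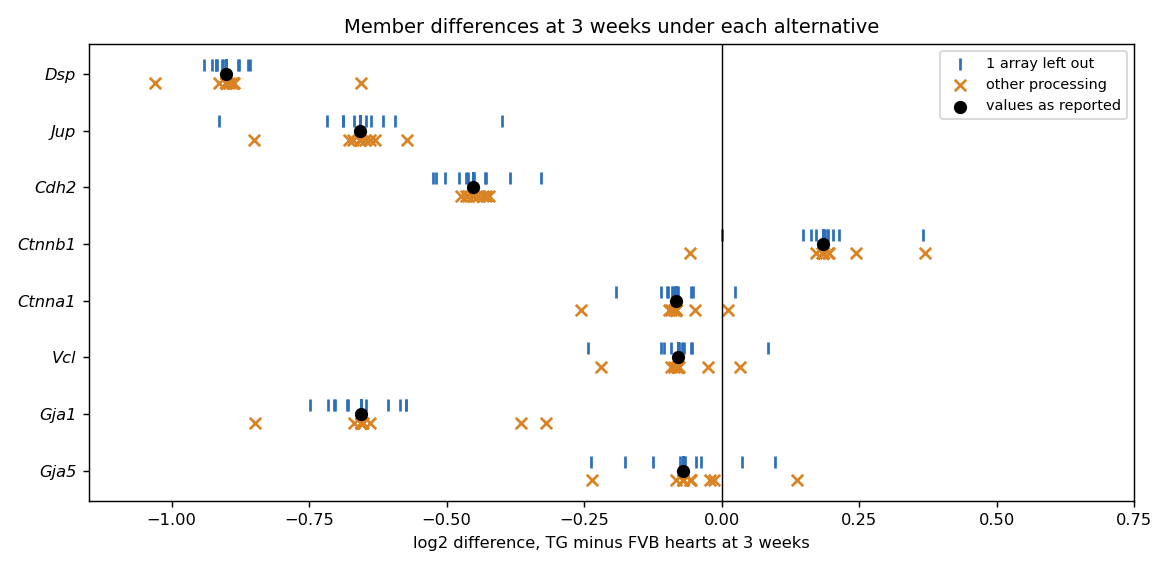
Log2 difference of TG minus FVB hearts at 3 weeks (x axis) for each gene (y axis) as reported (black points), with 1 array left out (blue ticks) and under other processing (orange crosses). Dsp, Jup, Cdh2 and Gja1 stay below 0 in every setting shown, and Ctnna1, Vcl, Ctnnb1 and Gja5 lie on both sides of 0.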

How the data were processed

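The deposited table holds, per the labels, Affymetrix U74Av2 values of mouse heart RNA. They are probe set intensity values (signals) on a linear scale that the authors had brought to nearly equal array means, as the values show. The software is not given in the sources used here. The 18 columns were mapped by title to 6 groups, and an identical pair was counted once, leaving 17 arrays. Signals under the 25th percentile (44.675) were raised to that floor and taken as log2. After removal of 66 control probe sets, the brightest 60% were tested, 7453 of 12422, with limma 3.58.1 in R 4.3.3: 1 mean for each of 6 groups, 11 residual degrees of freedom, two-sided, Benjamini-Hochberg over all tested. The comparison at 3 weeks weights both sexes equally. Symbols came from the platform annotation, which can be old. A gene is represented by its brightest probe set. The members are always named. From each list the rule names up to 3 called genes of smallest p, and other list genes were named after their values were seen. Likeness names the top 3 by r. The script was checked on simulated data. Pair ratios were taken within arrays. A permutation test run on them is not used, since the pairs were picked with the values known. The members and lists were chosen with earlier results of these data known. Replicate numbers were not used to pair the samples, and a pairing is not excluded. Alternatives changed the offset, floor, filter, scaling, probe set rule, weights, arrays kept, groups fitted and block. The number of arrays limits the precision.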

Additional observations from a re-analysis of the deposited data

Results flagged for a closer look

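The 9 tested probe sets on the 6 TG and on the 5 FVB arrays of 3 weeks, both sexes together, gave 18 sets of values, and 2 of them had an array far from the others by Dixon's criterion. Chance flags about 1 in 20 such sets. Ctnna1 on TG male replicate 1 was 3419.9, the lowest of 6 TG arrays, with the next at 3839.5. Vcl on FVB female replicate 1 was 3036.1, the lowest of 5 FVB arrays, with the next at 4493.8. The second is the array with few probe sets at the floor.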

How the results depend on the processing

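Of 30 alternative settings, 17 left out 1 array each. Over 56 results for single genes, each under these settings, 1648 values kept their side of the threshold, 11 calls were lost, 7 were gained, none changed direction, and 51 uncalled values changed sign. Leaving out 1 array gave 3 to 5 of the 8 genes called at 3 weeks, 1 to 2 in females, 3 to 4 in males, 0 to 1 for the sex difference (Jup, -0.97, limma adjusted p = 0.0447, without FVB female replicate 3), and 0 at the later ages. In females the count of 1 became 0 with a common median, with array weights or with only the groups compared, where Dsp missed the threshold at -0.63, -0.79 and -0.80, and it became 2 without the doubted FVB arrays. Array weights called 1 gene in females of 40 weeks (Vcl, -0.48, limma adjusted p = 0.00901). At 3 weeks, 1 array left out of a group of 3 gave 4 of the 8 genes each time, beside 3026 to 3502 of the 7453 probe sets tested. The counts of 3 and 5 came without an FVB female, which leaves 1 array in that group. Fits with the replicate block called 4 genes at 3 weeks, 1 in females, 4 in males and 0 elsewhere. Beside them stood 3328 probe sets at 3 weeks, 2310 in females and 2191 in males. Arrays of the same number in different groups correlated with a median of 0.054, with 16 of 40 pairs above 0.1, against a median of 0.0083 and 22 of 80 pairs for different numbers, which falls short of a correlation above 0.1 in every pair, so the numbers were not used as a pairing. The common median put the median of all probe sets at 0.18 in females and -0.18 in males, against 0.02 and 0.0034 on the deposited scale. Of the probe set counts, the female one (2587) became 699 with array weights and 3533 with both identical columns kept, the 40-week one (50) became 803 with array weights and 30 with the brightest 40%, the 13-week one (39) became 80 with array weights, and the sex difference (0) became 174 with both identical columns kept and 1492 without FVB female replicate 3. The pair ratios and the list counts and medians without doubted arrays were chosen after seeing the data. Leaving out the 3 doubted FVB arrays leaves 1 FVB array of each sex. The median log2 difference at 3 weeks was then -0.34 for the 8 genes, against -0.02 over all probe sets tested. It was -0.77 for the other desmosome genes and -1.18 for the cardiomyocyte markers. The cause of these changes was not tested. Signal over background limits Gja5 and the probe sets at the floor.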
